A study of Mus musculus with 8 samples.

Results

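The genes described here are 45 genes of the cell division cycle, given by symbol and taken from the 55291 genes of the deposited table. They fall into 22 genes of the G1/S transition and DNA replication and 23 genes of mitosis. The replication genes cover origin licensing and the replicative helicase (12 genes), the sliding clamp and nucleotide supply (6 genes) and G1/S regulators (4 genes). The mitosis genes cover cyclins and CDK control (5 genes), chromosome proteins (2 genes), mitotic kinases and the passenger complex (4 genes), the spindle checkpoint and APC/C (5 genes) and spindle motors and kinetochore proteins (7 genes). All 45 symbols matched 1 row of the table and 1 gene of GENCODE M21, and all 45 passed the filter on low counts. The lowest estimated count of any of them in any library was 16, for Cdc25c.

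CD8+ T cells were enriched from spleens of naïve mice, and polyadenylated RNA was sequenced in 8 libraries. The titles of all 8 samples call the cells naïve CD8 T cells. The genotype label is ATF4 Tg/Tg for the 4 libraries titled ATF4 overexpression (ATF4OE) and WT for the 4 libraries they are set against. The design text names the mice in another way, as ATF4Tg/Tg and as E8IcreATF4Tg/Tg. E8I-Cre is active in mature CD8+ T cells, and by that text both kinds of mouse would hold the transgene, which the label WT does not say. ATF4 is the main transcription factor of the integrated stress response, and the series asks what its persistence does to CD8+ T cells. No age or sex of the mice is given in the labels, and the cells were enriched with a kit rather than sorted. Whether libraries of 1 group stem from separate mice is not stated, and p-values therefore measure only the spread between these samples, which may be technical.

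Total estimated counts per library were between 93478686 and 125974143. Atf4 itself stood at 445, 427, 228 and 212 CPM in ATF4OE replicates 1 to 4, against 285, 308, 165 and 165 CPM in WT replicates 1 to 4 (CPM, counts scaled to a common library total with TMM factors). Its log2 fold change was 0.51 ± 0.31 (SE), which missed the threshold over all 8 libraries (edgeR, adjusted p = 0.37) and passed it with the replicate number as a block (adjusted p = 0.00022). The summed level of 10 CD8 T cell markers was 5695 to 5989 CPM in ATF4OE and 7171 to 7503 CPM in WT. Libraries of replicates 1 and 2 have column names without a hyphen before the number and those of replicates 3 and 4 have names with one, and what the hyphen stands for is not stated in the labels. In 4 libraries (ATF4OE replicates 1 and 2, WT replicates 1 and 4) genes with 2 to 5 counts were scarce, at 3.03% to 3.85% of detected genes against 6.44% to 7.71% in the other libraries. Results are therefore also given within each set of columns and without those 4 libraries.

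A resting T cell is held outside the cycle by RB family proteins, which bind E2F factors and keep their target genes low. When cyclin D with CDK4 or CDK6, and then cyclin E with CDK2, inactivate RB, E2F drives the genes that license origins, build the helicase and supply nucleotides. Mitotic genes come on later, in G2, when the MuvB complex joins B-MYB and FOXM1. Repression of the same genes at rest is carried by the DREAM complex, which binds the CHR element, often next to CCAAT boxes bound by NF-Y. In bulk RNA, a change in the number of cells in cycle and a change in RNA per cell cannot be told apart.

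Mitosis genes were higher in ATF4OE than in WT almost throughout, and replication genes less uniformly. In ATF4OE, 21 of 23 mitosis genes and 10 of 22 replication genes rose, which makes 31 of 45 (edgeR quasi-likelihood test, adjusted p below 0.05). Over all 16630 genes tested, 9.16% were called higher and 4.89% lower. None of the 45 was called lower, none was lower at an unadjusted p below 0.05, and DESeq2 and limma-voom also called 0 of them lower, beside 6.57% and 4.91% of all genes. The median log2 fold change was 2.49 over the mitosis genes and 1.08 over the replication genes, beside -0.02 over all genes tested. The summed level of the 23 mitosis genes was 378, 364, 918 and 962 CPM in ATF4OE replicates 1 to 4, against 116, 103, 169 and 181 CPM in WT replicates 1 to 4. Every ATF4OE library was thus above every WT library, and replicates 3 and 4 of ATF4OE stood apart from replicates 1 and 2. The summed level of the 22 replication genes was 879, 819, 1412 and 1383 CPM in ATF4OE, against 732, 716, 781 and 776 CPM in WT. Here too the groups did not overlap, but the lowest ATF4OE library was close to the highest WT library. Taken gene by gene, the 4 ATF4OE libraries were all above the 4 WT libraries for 21 of 23 mitosis genes and 11 of 22 replication genes, against 13.3% of all genes tested. The difference between the classes was not tested, since the genes of a class are not replicates.

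The counts differed between tests and between sets of libraries. DESeq2 called 38 of the 45 higher, of which 16 were replication genes, beside 12.8% of all genes. limma-voom called 19 higher, of which 5 were replication genes, beside 8.26% of all genes. Without the 4 libraries that lacked low counts, 41 were called higher, 19 of them replication genes, beside 7.29% of all genes, and 0 lower, beside 1.94%. That fit holds ATF4OE replicates 3 and 4, both from columns with a hyphen, against WT replicates 2 and 3, of which only 1 is from such a column. Group and column set are therefore partly confounded in it. With the column set as a block over all 8 libraries, 40 of the 45 were called higher, 18 of them replication genes, beside 14.0% of all genes, and 0 lower, beside 11.6%. Within ATF4OE, summed levels of erythroid and hematopoietic progenitor markers were also higher in replicates 3 and 4. The sum was 104 to 360 CPM in ATF4OE against 17.0 to 20.2 CPM in WT for 16 erythroid markers. For 6 progenitor markers it was 142 to 346 CPM in ATF4OE, against 100, 108, 86.8 and 94.7 CPM in WT replicates 1 to 4. The WT sums of these lists thus did not show the same order of replicates. The myeloid sum was higher in replicates 3 and 4 of both groups, while the B cell and plasma cell sum was lower there. Myeloid sums were 143, 126, 361 and 365 CPM in ATF4OE and 15.0, 14.7, 79.8 and 75.8 CPM in WT. The part of these markers in the result was not tested.

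**Figure D1:**
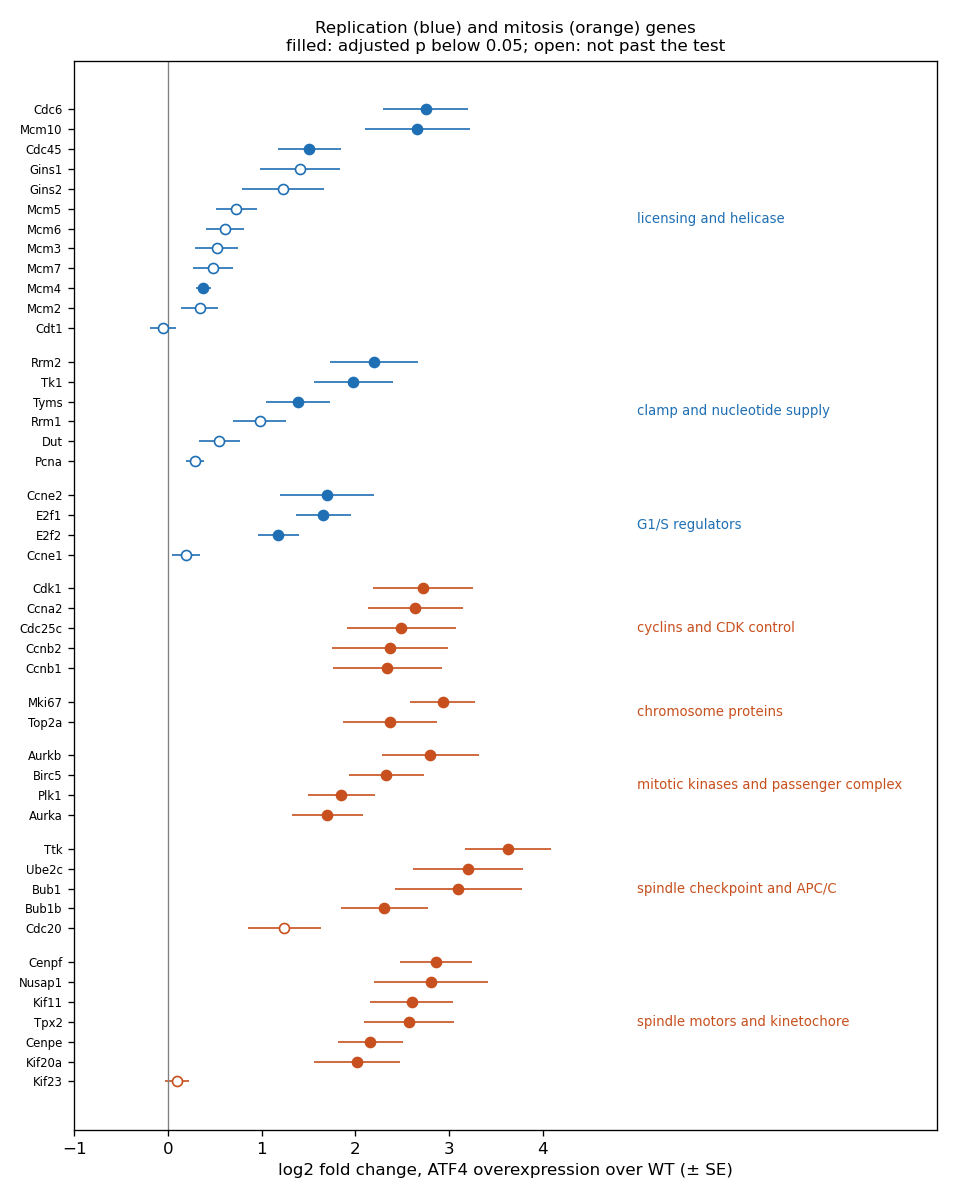
Log2 fold change of ATF4OE over WT (x axis, points, with bars of 1 SE from the fit on 4 against 4 libraries) for the 45 genes in rows, grouped by role. Filled points passed the test and open points did not. The mitosis genes lie mostly between 1.70 and 3.63, with Cdc20 at 1.24 and Kif23 at 0.10, while the replication genes run from -0.05 for Cdt1 to 2.75 for Cdc6.

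Among the genes of origin licensing and the helicase, 4 of 12 rose and the median log2 fold change was 0.67. The 4 were Cdc6, Mcm10, Cdc45 and Mcm4. Cdc6, which with Cdt1 loads the MCM helicase on origins (chromosome 11, 98907801 to 98923940, plus strand, GRCm38), stood at 5.39, 4.57, 17.0 and 16.3 CPM in ATF4OE, against 1.80, 1.29, 1.83 and 1.48 CPM in WT. The groups were clearly apart, with the upper ATF4OE pair in replicates 3 and 4 (log2 fold change 2.75 ± 0.45, adjusted p = 0.0030). Mcm10, which helps to start the loaded helicase, had a log2 fold change of 2.66 ± 0.56 (adjusted p = 0.012). Cdc45, a subunit of the active helicase, had one of 1.51 ± 0.34 (adjusted p = 0.016) and did not pass without WT replicate 1 (adjusted p = 0.050).

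The 6 subunits of the MCM ring itself differed little by comparison in fold change. Mcm6 (chromosome 1, 128331590 to 128359664, minus strand) stood at 128, 115, 208 and 202 CPM in ATF4OE, against 98.7, 94.2, 115 and 122 CPM in WT. ATF4OE replicate 2 lay at the level of WT replicates 3 and 4, so the groups overlapped. Its log2 fold change of 0.61 ± 0.20 missed the threshold (adjusted p = 0.072), but was called in the fit blocked by replicate (adjusted p = 0.0062). Mcm4 passed the edgeR test with group as the only term, with a log2 fold change of 0.38 ± 0.08 (adjusted p = 0.013). The log2 fold changes of Mcm2, Mcm3, Mcm5 and Mcm7 were 0.34, 0.52, 0.73 and 0.48, with adjusted p-values of 0.32, 0.20, 0.060 and 0.18. With the column set as a block, Mcm3, Mcm5 and Mcm6 passed (adjusted p = 0.015, 0.018 and 0.00081), and DESeq2 called Mcm5 and Mcm6 (adjusted p = 0.0033 and 0.0070). Within columns without a hyphen, Mcm6 passed (adjusted p = 0.039). There Mcm3 and Mcm5 did not, at log2 fold changes of 0.16 and 0.25 (adjusted p = 0.35 and 0.14). Cdt1, the partner of Cdc6 in loading, stood at 57.1, 49.3, 45.9 and 41.0 CPM in ATF4OE, against 57.3, 58.4, 43.6 and 40.3 CPM in WT. Its groups overlapped fully (log2 fold change -0.05 ± 0.14, adjusted p = 0.89). Gins1 and Gins2, of the GINS complex that holds the active helicase together, had log2 fold changes of 1.41 ± 0.43 and 1.23 ± 0.44 that did not pass (adjusted p = 0.058 and 0.098), and Gins1 was called when replicates were blocked (adjusted p = 0.019). Both passed with the column set as a block (adjusted p = 0.020 and 0.033). Within columns without a hyphen, their log2 fold changes were 0.61 and 0.29 and did not pass (adjusted p = 0.52 and 0.71). With a hyphen they were 1.90 and 1.73 and passed (adjusted p = 0.0037 and 0.0057).

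Of the clamp and nucleotide supply genes, 3 of 6 rose, and these were Rrm2, Tk1 and Tyms. Tk1, the thymidine kinase of the salvage route, stood at 6.81, 7.27, 18.9 and 16.9 CPM in ATF4OE, against 2.46, 1.83, 4.79 and 3.51 CPM in WT. All ATF4OE libraries were above all WT libraries (log2 fold change 1.98 ± 0.42, adjusted p = 0.011). Rrm2, the small subunit of ribonucleotide reductase whose level follows S phase, had a log2 fold change of 2.20 ± 0.47 (adjusted p = 0.015). Rrm1, the large subunit, had one of 0.98 ± 0.28 that did not pass (adjusted p = 0.051) and passed with the block (adjusted p = 0.018). Tyms, which makes thymidylate, had one of 1.39 ± 0.34 (adjusted p = 0.023), and the call was lost when any of ATF4OE replicates 3 and 4 or WT replicates 1, 2 and 3 was left out (adjusted p up to 0.068).

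Pcna, the sliding clamp of the replicative polymerases (chromosome 2, 132249162 to 132253314, minus strand), was measured at 151, 126, 179 and 165 CPM in ATF4OE, against 133, 129, 128 and 117 CPM in WT. ATF4OE replicate 2 lay within the WT range. The log2 fold change of 0.29 ± 0.10 did not pass the test (adjusted p = 0.099). Dut, which removes dUTP, had a log2 fold change of 0.55 ± 0.22 that did not pass either (adjusted p = 0.15). Both were called with the column set as a block (adjusted p = 0.041 for Pcna and 0.032 for Dut). Within columns without a hyphen, their log2 fold changes were 0.11 and 0.13 and did not pass (adjusted p = 0.59 and 0.64). With a hyphen they were 0.49 and 0.86 and passed (adjusted p = 0.0060 and 0.00087).

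Among the G1/S regulators, E2f1, E2f2 and Ccne2 rose and Ccne1 did not pass. E2f2, an activator E2F, stood at 41.0, 37.8, 52.4 and 50.3 CPM in ATF4OE, against 16.6, 12.5, 24.6 and 26.2 CPM in WT, without overlap (log2 fold change 1.18 ± 0.22, adjusted p = 0.0069). E2f1, another activator E2F, stood at 8.23, 5.81, 14.7 and 14.1 CPM in ATF4OE, against 3.41, 3.07, 3.84 and 3.29 CPM in WT (log2 fold change 1.66 ± 0.29, adjusted p = 0.0041). The WT libraries of E2f1 were nearly level, and the ATF4OE libraries split by column set. The cyclin E genes, whose products activate CDK2, differed from each other in their test result. Ccne2 had a log2 fold change of 1.70 ± 0.50 (adjusted p = 0.048), which was lost when any of 6 libraries was left out, those other than ATF4OE replicates 1 and 2 (adjusted p up to 0.14). Ccne1 had one of 0.19 ± 0.15 (adjusted p = 0.52), and the difference between the 2 cyclin E genes was not tested.

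All 5 genes of cyclins and CDK control rose. Ccna2, the cyclin of S phase and G2, stood at 14.3, 14.3, 42.2 and 44.7 CPM in ATF4OE, against 3.27, 2.37, 6.18 and 6.66 CPM in WT (log2 fold change 2.64 ± 0.51, adjusted p = 0.0089). Cdk1, the kinase that starts mitosis, stood at 6.82, 5.96, 22.2 and 21.3 CPM in ATF4OE, against 1.24, 1.40, 3.24 and 2.63 CPM in WT (log2 fold change 2.72 ± 0.53, adjusted p = 0.0082). For both genes every ATF4OE library was above every WT library, and in each group replicates 3 and 4 were the upper pair. Ccnb1 and Ccnb2, the B-type cyclins that activate Cdk1, had log2 fold changes of 2.34 ± 0.58 and 2.37 ± 0.62 (adjusted p = 0.026 and 0.035). Cdc25c, a phosphatase that activates Cdk1, had one of 2.49 ± 0.58 (adjusted p = 0.018). These 3 calls were lost in some fits on 7 libraries: Ccnb1 without ATF4OE replicate 3 or 4 or WT replicate 1, 2 or 4 (adjusted p up to 0.073), Ccnb2 without ATF4OE replicate 3 or 4 or WT replicate 1, 2 or 3 (up to 0.10), and Cdc25c without ATF4OE replicate 3 or 4 or WT replicate 1 (up to 0.056).

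Both chromosome proteins rose. Mki67, which encodes the Ki-67 protein that coats mitotic chromosomes and marks cycling cells (chromosome 7, 135689784 to 135716361, minus strand), stood at 103, 106, 211 and 249 CPM in ATF4OE, against 17.9, 15.2, 27.9 and 27.0 CPM in WT. The lowest ATF4OE library was far above the highest WT library (log2 fold change 2.93 ± 0.35, adjusted p = 0.00093). Top2a, the topoisomerase that untangles sister chromatids, stood at 70.5, 58.9, 180 and 173 CPM in ATF4OE, against 14.5, 12.6, 32.4 and 33.8 CPM in WT. Its log2 fold change was 2.37 ± 0.50 (adjusted p = 0.017), and the call was lost without ATF4OE replicate 3 or 4 (adjusted p up to 0.068), although the groups did not overlap.

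All 4 genes of mitotic kinases and the passenger complex rose. Birc5, which encodes the passenger protein survivin, stood at 9.99, 10.2, 27.3 and 26.1 CPM in ATF4OE, against 2.84, 2.45, 4.51 and 4.84 CPM in WT, without overlap (log2 fold change 2.33 ± 0.40, adjusted p = 0.0044). Aurkb, the kinase of the same complex, had a log2 fold change of 2.80 ± 0.52 (adjusted p = 0.0063). Plk1, a kinase of mitotic entry and spindle assembly, had one of 1.85 ± 0.36 (adjusted p = 0.0072), and Aurka, the centrosomal Aurora kinase, one of 1.70 ± 0.38 (adjusted p = 0.015).

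In the spindle checkpoint and APC/C group, 4 of 5 genes rose and the median log2 fold change was 3.10. Ttk, which encodes the checkpoint kinase MPS1 (chromosome 9, 83834689 to 83872389, plus strand), stood at 2.96, 2.40, 6.78 and 7.16 CPM in ATF4OE, against 0.429, 0.209, 0.442 and 0.477 CPM in WT. WT libraries were all below 1 CPM and ATF4OE libraries all above it (log2 fold change 3.63 ± 0.46, adjusted p = 0.00079). Bub1b, which encodes the checkpoint protein BUBR1, stood at 12.0, 13.6, 35.9 and 34.9 CPM in ATF4OE, against 3.77, 2.52, 6.05 and 7.12 CPM in WT (log2 fold change 2.31 ± 0.46, adjusted p = 0.011). Ube2c, the ubiquitin-conjugating enzyme of the APC/C, had a log2 fold change of 3.20 ± 0.59 (adjusted p = 0.0068), and Bub1, a checkpoint kinase, one of 3.10 ± 0.68 (adjusted p = 0.016). Cdc20, the APC/C activator, stood at 7.02, 7.79, 21.5 and 19.0 CPM in ATF4OE, against 4.44, 4.24, 7.63 and 7.07 CPM in WT. ATF4OE replicates 1 and 2 lay at about the level of WT replicates 3 and 4, the log2 fold change of 1.24 ± 0.39 did not pass (adjusted p = 0.066), and it was called when replicates were blocked (adjusted p = 0.0015).

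Of the spindle motors and kinetochore proteins, 6 of 7 rose. Cenpf, a kinetochore protein of G2 and mitosis, stood at 11.8, 10.5, 25.4 and 27.2 CPM in ATF4OE, against 1.79, 1.96, 3.54 and 3.03 CPM in WT (log2 fold change 2.86 ± 0.38, adjusted p = 0.0010). Kif11, the motor that separates spindle poles, Tpx2, a spindle assembly factor, and Cenpe, a kinetochore motor, had log2 fold changes of 2.60, 2.57 and 2.16 (adjusted p = 0.0048, 0.0081 and 0.0033). Nusap1, a microtubule-bundling protein, had one of 2.81 ± 0.61 (adjusted p = 0.015) and did not pass without ATF4OE replicate 3 (adjusted p = 0.057). Kif20a, a motor of the central spindle, had one of 2.02 ± 0.46 (adjusted p = 0.019) and did not pass without WT replicate 1, 2 or 3 (adjusted p up to 0.059).

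Kif23, a central spindle motor needed for cytokinesis (chromosome 9, 61915905 to 61946774, minus strand), was the mitosis gene with the smallest difference. It stood at 28.6, 32.7, 40.7 and 43.3 CPM in ATF4OE, against 36.0, 34.6, 31.0 and 34.2 CPM in WT. ATF4OE was below WT in replicates 1 and 2 and above it in replicates 3 and 4. The log2 fold change was 0.10 ± 0.13 (adjusted p = 0.72), while within replicates 3 and 4 alone it was 0.37 and passed (adjusted p = 0.023).

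**Figure D2:**
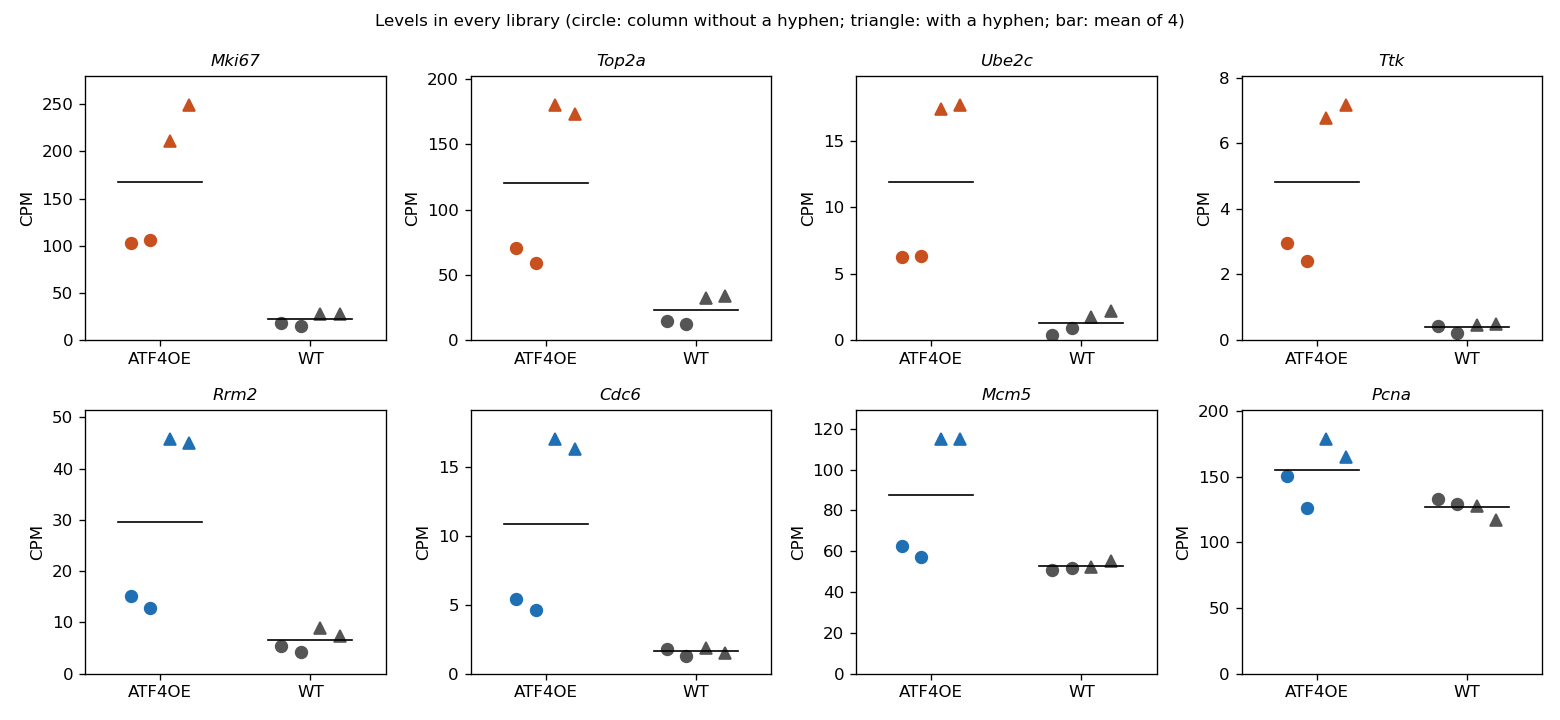
Level of 8 genes (y axes, CPM, from 0) in the 4 ATF4OE libraries, left in each panel, and the 4 WT libraries, right, with circles for columns without a hyphen (replicates 1 and 2), triangles for columns with one (replicates 3 and 4) and a line at the mean of 4. Upper panels hold mitosis genes and lower panels replication genes. Mki67, at 103 to 249 CPM in ATF4OE, stands clear of WT at 15.2 to 27.9 CPM, whereas Pcna, at 126 to 179 CPM in ATF4OE, overlaps WT at 117 to 133 CPM.

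Replication and mitosis genes also differed in the level from which they were compared. On a scale of CPM per kb of exon, which allows levels of different genes to be set side by side, the median of the mitosis genes was 4.60 in ATF4OE and 0.938 in WT. The median of the replication genes was 7.95 in ATF4OE and 3.70 in WT. The median of the differences in level per kb, ATF4OE minus WT, was 4.06 for mitosis genes and 2.51 for replication genes. Within the replication genes, the MCM ring subunits and Pcna were already high in WT, where Mcm2 had the lowest level of these at 10.2 CPM per kb and Pcna the highest at 52.8 CPM per kb. Pcna reached 64.7 CPM per kb in ATF4OE. Small fold changes did not mean small differences in level for these genes. ATF4OE minus WT was 11.8 CPM per kb for Pcna, and in the MCM ring it ran from 2.7 for Mcm2 to 12.0 for Mcm6. Mcm10, with one of the largest fold changes of the replication genes, stood at 1.26 CPM per kb in ATF4OE and 0.198 CPM per kb in WT. Ttk, with the largest log2 fold change of the 45 genes, stood at 0.981 CPM per kb in ATF4OE and 0.0791 CPM per kb in WT. Fold changes were thus small for the genes with the highest WT levels, among them Cdt1 at 15.4 CPM per kb in ATF4OE and 15.9 CPM per kb in WT. Kif23 also had the highest WT level per kb of the mitosis genes, at 4.60 CPM per kb in ATF4OE and 4.30 CPM per kb in WT.

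**Figure D3:**
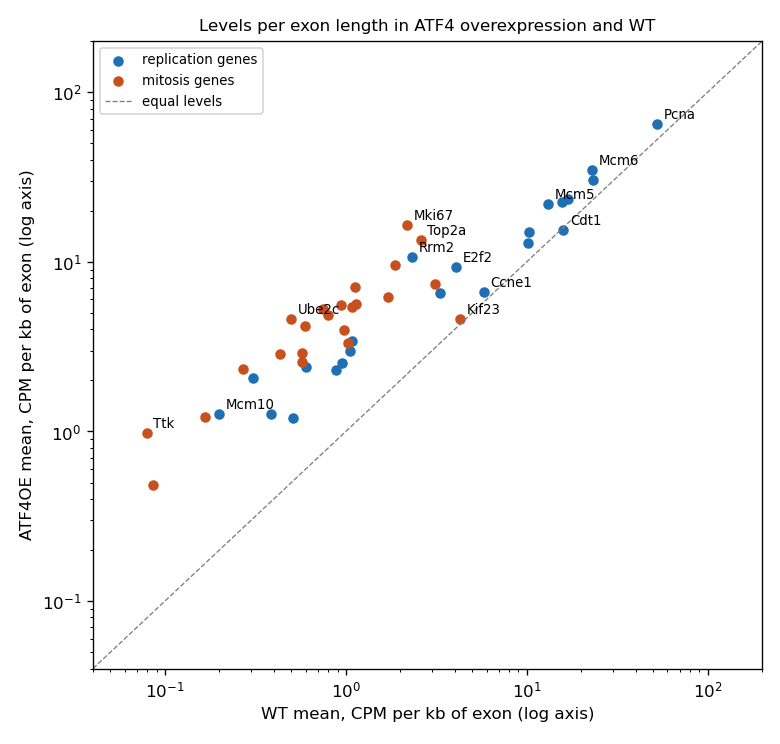
Mean level of each of the 45 genes in ATF4OE (y axis) against WT (x axis), both in CPM per kb of exon on log axes, with the dashed line at equal levels. Mitosis genes, in orange, lie further above the line than most replication genes, in blue, and Pcna, Cdt1, Ccne1 and Kif23 lie near it, Pcna at 64.7 in ATF4OE and 52.8 in WT.

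The comparison was repeated within each set of columns, 2 libraries against 2. In columns with a hyphen (replicates 3 and 4), 20 of 22 replication genes and 23 of 23 mitosis genes rose in ATF4OE, beside 14.3% of all genes. In columns without one (replicates 1 and 2), 9 of 22 replication genes and 18 of 23 mitosis genes rose, beside 6.75% of all genes. The median log2 fold change of the mitosis genes was 2.66 with a hyphen and 2.30 without. The median of the replication genes was 1.18 with a hyphen and 0.44 without. Of the 45 genes, 42 had the same direction in both sets, and the share of all genes that did so was not counted. Summed over the mitosis genes, the ratio of ATF4OE to WT was 5.37 with a hyphen and 3.39 without, and over the replication genes it was 1.80 with a hyphen and 1.17 without.

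The difference between the effects in the 2 sets was tested by the interaction of group and column set, which 0.998% of all genes passed. Among replication genes 6 of 22 passed, and these were Mcm2, Mcm3, Mcm5, Mcm7, Cdc6 and Rrm1. Among mitosis genes 0 of 23 passed with edgeR, and 11 of 23 had an unadjusted p below 0.05, beside 19 of 22 replication genes and 12.6% of all genes. Passing depended on precision as well as size. The differences of Ccnb1 (1.60 ± 0.32, adjusted p = 0.057) and Kif20a (1.20 ± 0.27, adjusted p = 0.093) did not pass, whereas that of Mcm2 (0.68 ± 0.10) did. The median difference was 0.79 over replication genes and 0.43 over mitosis genes. No other tool was run on this interaction. Outside the 45 genes, 5 of 49 other replication genes (Pola1, Pold1, Lig1, Uhrf1 and Tipin), 1 of 50 other mitosis genes (Cdca3), 2 of 24 genes of the G1 list (Cdk6 and Tfdp1) and 1 of 9 CDK inhibitors and antiproliferative genes (Tob2) passed. Markers of other cell types moved with the sets too. The interaction passed for 3 of 16 erythroid markers, 2 of 6 progenitor markers, 6 of 7 NK cell markers, 1 of 14 myeloid markers, 1 of 6 dendritic cell markers and 1 of 4 CD4 T cell markers. The summed ratio of ATF4OE to WT was 19.3 with a hyphen and 5.43 without for erythroid markers, 3.66 with and 1.42 without for progenitor markers, and 1.07 with and 2.65 without for NK cell markers. Their part in the differences between the sets was not tested. Mcm5 stood at 115 and 115 CPM in ATF4OE with a hyphen and 62.7 and 57.3 CPM in ATF4OE without, against 52.4 and 55.0 CPM in WT with a hyphen and 50.9 and 51.9 CPM in WT without. WT was nearly level across the sets while ATF4OE was not, and the effects differed by 0.88 ± 0.10 on the log2 scale (adjusted p = 0.0037). The effect was larger with a hyphen for 21 of 22 replication genes and 19 of 23 mitosis genes, beside 55.1% of all genes. Levels were also higher with a hyphen in ATF4OE alone, where both hyphen libraries were above both other libraries for 44 of 45 genes. Over the whole table, ATF4OE libraries also differed more across the sets than within them. The chi-square per degree of freedom was 182 to 230 across the sets, against 38.5 and 66.3 within them. In WT the mean with a hyphen was above that without one for 22 of 23 mitosis genes and 19 of 22 replication genes. The shares of all genes with such differences between the sets, in ATF4OE or in WT, were not counted. These counts therefore cannot be called particular to the 45 genes.

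**Figure D4:**
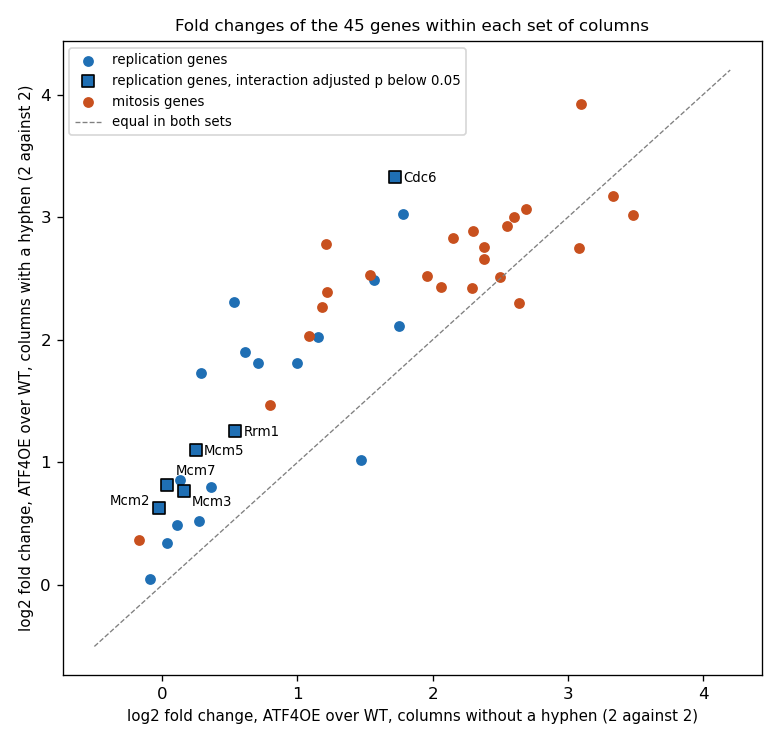
Log2 fold change of ATF4OE over WT within columns with a hyphen (y axis) against that within columns without one (x axis), each from 2 against 2 libraries, with 1 point for each of the 45 genes and a dashed line at equal effects. Squares with black edges are the 6 replication genes whose interaction passed the test, Cdc6 with 3.33 and Mcm5 with 1.10 on the y axis. Most points lie above the line, replication genes most often at low x values.

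Genes of the same pathways outside the 45 were read from 4 lists, in which 61 of 132 tested genes were higher and 3 lower. Of 50 other mitosis genes 42 rose and 1 fell, with a median log2 fold change of 1.96, and with the replicate block 46 rose and 2 fell. The second was Pttg1, which encodes securin, with a log2 fold change of -0.56 ± 0.18 that did not pass without the block (adjusted p = 0.066, and 0.0012 with it). Of all genes, 13.7% were called higher and 13.5% lower with this block. Nuf2 and Ndc80, of the NDC80 complex that ties kinetochores to microtubules, rose by 2.93 ± 0.34 and 1.09 ± 0.14 on the log2 scale (adjusted p = 0.00050 and 0.00072). Ckap2, a spindle protein, rose by 1.83 ± 0.25 (adjusted p = 0.0012). Smc4, a condensin subunit, fell in ATF4OE, at 456, 461, 441 and 447 CPM in ATF4OE, against 698, 713, 652 and 702 CPM in WT (log2 fold change -0.62 ± 0.06, adjusted p = 0.00018). Its libraries were level within each group.

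Of 49 other replication genes 10 rose and 1 fell, with a median log2 fold change of 0.28. With the replicate block 17 rose and 3 fell, beside 13.7% and 13.5% of all genes. Those that rose without the block were Orc1, Gmnn, Pold3, Lig1, Chaf1a, Uhrf1, Clspn, Wdhd1, Recql4 and Ticrr. Ticrr, which helps to recruit Cdc45 to origins, had a log2 fold change of 2.45 ± 0.34 (adjusted p = 0.0013). Clspn, a mediator of the replication checkpoint, had one of 2.25 ± 0.38 (adjusted p = 0.0041), and Chaf1a, a histone chaperone of replicating chromatin, one of 2.12 ± 0.37 (adjusted p = 0.0048). Donson, a factor of helicase assembly, fell, with a log2 fold change of -0.54 ± 0.09 (adjusted p = 0.0030).

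Of 24 tested genes of G1 cyclins, RB and E2F regulators, 8 rose (Ccnd1, Cdk2, Cdk6, E2f7, E2f8, Tfdp2, Mybl2 and Foxm1) and E2f5 fell. Cdk6, a cyclin D kinase that acts on RB, stood at 111, 108, 148 and 143 CPM in ATF4OE, against 64.8, 58.4, 47.9 and 47.3 CPM in WT (log2 fold change 1.22 ± 0.14, adjusted p = 0.00048). Foxm1, the forkhead activator of mitotic genes, stood at 20.7, 18.6, 34.6 and 30.4 CPM in ATF4OE, against 8.67, 7.88, 8.55 and 8.07 CPM in WT (log2 fold change 1.65 ± 0.19, adjusted p = 0.00051). In both cases the ATF4OE libraries were all above the WT libraries. Mybl2, which encodes B-MYB, had a log2 fold change of 1.78 ± 0.32 (adjusted p = 0.0053), and E2f8, a repressor E2F, one of 3.23 ± 0.56 (adjusted p = 0.0051). Of 9 tested CDK inhibitors and antiproliferative genes, 1 rose. This was Cdkn1a, which encodes the CDK inhibitor p21, at 2.13, 3.09, 1.31 and 1.68 CPM in ATF4OE, against 0.520, 0.477, 0.467 and 0.370 CPM in WT (log2 fold change 2.16 ± 0.36, adjusted p = 0.0034). In the fit blocked by replicate 2 of the 9 rose and 2 fell, beside 13.7% and 13.5% of all genes.

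Markers of CD8 T cells and of cells other than CD8 T cells were read in the same libraries. Of 10 CD8 T cell markers, 6 fell and 0 rose in ATF4OE (edgeR), with a median log2 fold change of -0.26, and without the 4 libraries that lacked low counts 0 fell or rose in a fit of 2 against 2, at a median of -0.33. Cd8a stood at 1155, 995, 1135 and 1054 CPM in ATF4OE, against 1515, 1448, 1334 and 1282 CPM in WT. Cd8b1 stood at 891, 986, 927 and 982 CPM in ATF4OE, against 1144, 1233, 1239 and 1340 CPM in WT. Both chains of the CD8 co-receptor were thus abundant in every library and lower in every ATF4OE library than in any WT library.

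Of 16 erythroid markers found in the table, 12 rose and 0 fell, and their summed level was 104, 104, 360 and 348 CPM in ATF4OE, against 18.2, 20.2, 19.6 and 17.0 CPM in WT. The upper pair was again ATF4OE replicates 3 and 4. Car1, an early erythroid carbonic anhydrase, stood at 44.6, 33.0, 178 and 171 CPM in ATF4OE, against 3.62, 2.74, 4.19 and 2.53 CPM in WT. Car2, a related carbonic anhydrase that is less specific to red cells, had a log2 fold change of 2.53 ± 0.30 (adjusted p = 0.00062). Klf1, the erythroid transcription factor, stood at 3.89, 3.51, 15.6 and 18.0 CPM in ATF4OE, against 0.362, 0.139, 0.250 and 0.313 CPM in WT. Among markers of later red cells, Alas2 was near 0, with 0 counts in ATF4OE replicate 1 and in WT replicates 1 and 4 and 0.368 CPM at most. Hbb-bs, a beta globin, was not near 0 throughout and reached 11.0 CPM. Epor, Slc4a1, Rhag and Epb42 were also at 0 in 1 or more WT libraries.

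Of 6 hematopoietic progenitor markers 4 rose and 0 fell, at summed levels of 142 to 346 CPM in ATF4OE and 86.8 to 108 CPM in WT. Kit, the stem cell factor receptor, stood at 25.3, 20.5, 72.1 and 67.9 CPM in ATF4OE, against 2.29, 2.78, 3.64 and 2.87 CPM in WT. Myb, the most abundant of these markers, did not pass (log2 fold change 0.76, adjusted p = 0.088). Of the list, Cd34 and Meis1 were at 0 in WT replicate 1. In ATF4OE the erythroid and progenitor sums, like the sum of the mitosis genes, were higher in replicates 3 and 4 than in replicates 1 and 2. In WT the progenitor sum was lower in replicates 3 and 4 (86.8 and 94.7 CPM) than in replicates 1 and 2 (100 and 108 CPM). The WT sum of the mitosis genes was higher in replicates 3 and 4. So was Kit within the progenitor list, at 3.64 and 2.87 CPM against 2.29 and 2.78 CPM in WT replicates 1 and 2.

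Myeloid markers rose for 6 of 14 genes, at summed levels of 143, 126, 361 and 365 CPM in ATF4OE, against 15.0, 14.7, 79.8 and 75.8 CPM in WT, and 12 of 14 rose with the replicate block. Lyz2, the macrophage lysozyme, had a log2 fold change of 2.08 (adjusted p = 0.26) and Mpeg1, a macrophage perforin, one of 2.37 (adjusted p = 0.057). In this list Cd14, Elane, Mpo, Prtn3, Ctsg and Ms4a3 were at 0 in 1 or more WT libraries. B cell and plasma cell markers rose for 8 of 13 genes, at 309, 223, 115 and 112 CPM in ATF4OE, against 69.5, 70.0, 32.7 and 36.9 CPM in WT, so that replicates 1 and 2 were the upper pair here. Cd79a and Cd79b, the signalling chains of the B cell receptor, had log2 fold changes of 2.37 (adjusted p = 0.025) and 0.48 (adjusted p = 0.091), and Mzb1 was at 0 in 3 WT libraries. Without the 4 libraries that lacked low counts, 1 of the 13 rose.

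NK cell markers rose for 3 of 7 genes (0 of 7 with the replicate block, and 0 without the 4 libraries), with a summed level of 175 to 300 CPM in ATF4OE and 99.1 to 176 CPM in WT. Dendritic cell markers rose for 1 of 6 genes (0 without the 4 libraries), at 16.5 to 33.8 CPM in ATF4OE and 4.58 to 12.8 CPM in WT, with Xcr1 at 0 in 3 WT libraries and Clec9a in 1. Platelet and megakaryocyte markers rose for 4 of 7 genes, at 9.04 to 17.2 CPM in ATF4OE and 3.54 to 4.67 CPM in WT, with Gp9 at 0 in all 4 WT libraries. CD4 T cell markers rose for 3 of 4 genes (1 without the 4 libraries), at 33.4 to 47.6 CPM in ATF4OE and 7.37 to 14.6 CPM in WT. Gamma-delta T cell markers rose for 3 of 3 tested genes of 5 listed, at 26.7 to 49.8 CPM in ATF4OE and 15.2 to 18.3 CPM in WT. None of these lists had a gene that fell. Markers of several other cell types thus stood higher in the ATF4OE libraries, and their part in the levels of the replication and mitosis genes was not tested.

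**Figure D5:**
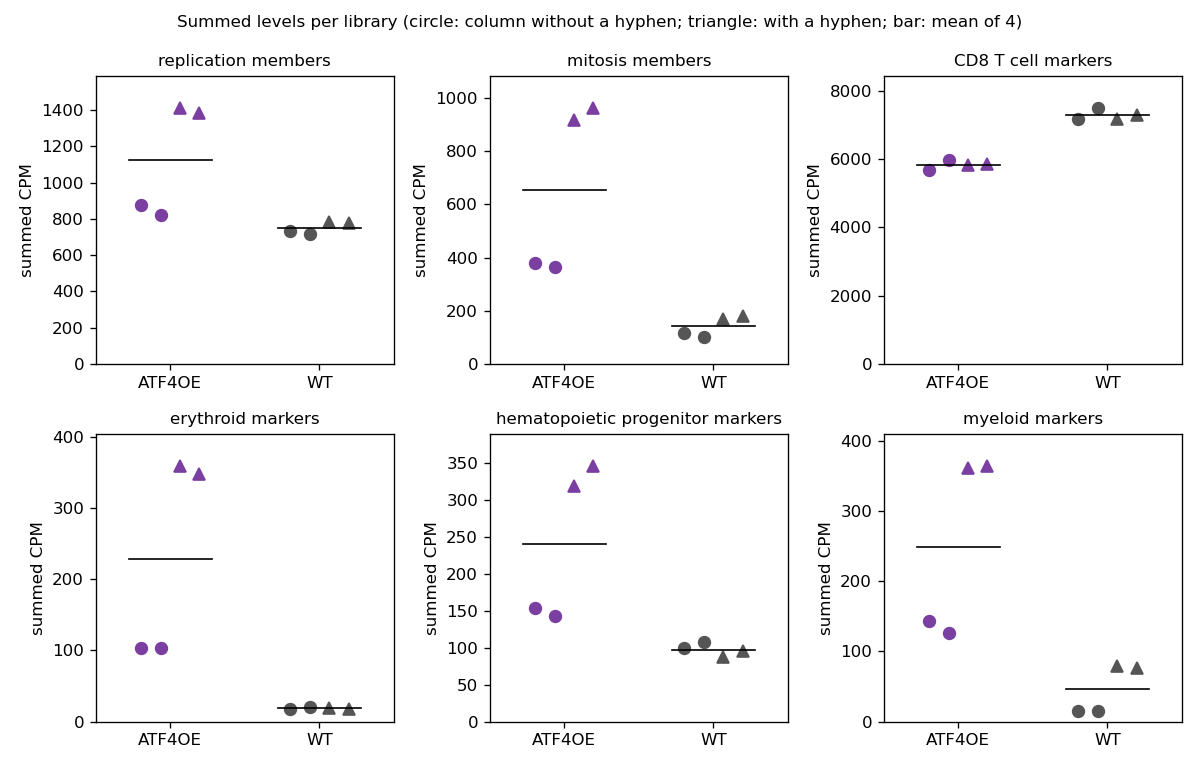
Summed level (y axes, CPM, from 0) of 6 gene lists in the 4 ATF4OE libraries, left in each panel, and the 4 WT libraries, right, with circles for replicates 1 and 2, triangles for replicates 3 and 4 and a line at the mean of 4. The replication, mitosis, erythroid, progenitor and myeloid sums are highest in ATF4OE replicates 3 and 4, for the mitosis genes at 918 and 962 CPM, while the CD8 T cell sum is lower in every ATF4OE library than in any WT library.

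Promoter windows were examined because the 2 classes are known to depend on different elements. The windows came from RefSeq (GRCm38.p6), from 250 bases before to 50 bases after the start of transcription, and were found for 36 of the 45 genes, in 38 windows. Both strands were searched for the E2F words TTTCCCGC, TTTGGCGC, TTTCGCGC and TTTGCCGC, for the CHR words TTTGAA and TTTAAA, and for CCAAT, and 1 pair of matches to different motifs overlapped. An E2F word stood in 7 of 20 replication windows (35.0%) and in 1 of 18 mitosis windows (5.56%), beside 3.81% of the 13938 windows of all genes tested. A CHR word stood in 16 of 18 mitosis windows (88.9%) and in 7 of 20 replication windows (35.0%), beside 20.1% of all. CCAAT stood in 88.9% of mitosis windows and 65.0% of replication windows, beside 37.9% of all. Both a CHR word and CCAAT stood in 15 of 18 mitosis windows (83.3%) and in 5 of 20 replication windows (25.0%), beside 8.03% of all. In the lists outside the 45 genes, a CHR word was found in 70.8% of other mitosis windows and 23.1% of other replication windows, and an E2F word in 10.4% and 28.8% of them. Some replication windows lay wholly inside the gene as annotated in GENCODE M21, namely those of E2f1, Cdc6, Dut and Mcm7 and the second of E2f2. The second window of E2f2 began at base 136180532, against a gene start at 136172394, and held a CHR word and CCAAT but no E2F word. The shares of the replication windows may therefore not describe the main promoters. A match is a description of these letters and not of a bound site.

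The replication genes with an E2F word were Mcm3, Mcm5, Mcm6, Mcm7, Cdc6, Cdt1 and E2f2, and the mitosis gene with one was Cdk1. In ATF4OE these replication genes ran from a log2 fold change of -0.05 for Cdt1 to 2.75 for Cdc6. Between these ends, Mcm7, Mcm3, Mcm6 and Mcm5 lay at 0.48 to 0.73, below the median of 1.08 of all replication genes. E2f2 stood at 1.18. Kif23, which did not pass the test, also holds a CHR word. Sequences are shown for 3 mitosis genes that rose and 3 replication genes with an E2F word and unequal fold changes, each 5′ to 3′ on the strand of its gene, with the matches to the words above, on either strand, in capitals.
Mki67 (chr7:135716330-135716629, minus strand): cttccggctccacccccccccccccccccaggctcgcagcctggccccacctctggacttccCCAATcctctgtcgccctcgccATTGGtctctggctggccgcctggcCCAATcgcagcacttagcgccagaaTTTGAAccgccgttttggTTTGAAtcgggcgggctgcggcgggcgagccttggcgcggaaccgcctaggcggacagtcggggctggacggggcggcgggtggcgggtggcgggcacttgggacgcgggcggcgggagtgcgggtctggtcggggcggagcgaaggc
Ttk (chr9:83834439-83834738, plus strand): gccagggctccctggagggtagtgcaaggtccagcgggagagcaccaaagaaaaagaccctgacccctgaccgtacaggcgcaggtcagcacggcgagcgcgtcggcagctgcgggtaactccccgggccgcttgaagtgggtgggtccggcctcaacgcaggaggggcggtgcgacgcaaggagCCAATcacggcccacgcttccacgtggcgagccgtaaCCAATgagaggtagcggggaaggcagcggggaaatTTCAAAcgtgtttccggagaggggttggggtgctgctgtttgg
Cdk1 (chr10:69352863-69353162, minus strand): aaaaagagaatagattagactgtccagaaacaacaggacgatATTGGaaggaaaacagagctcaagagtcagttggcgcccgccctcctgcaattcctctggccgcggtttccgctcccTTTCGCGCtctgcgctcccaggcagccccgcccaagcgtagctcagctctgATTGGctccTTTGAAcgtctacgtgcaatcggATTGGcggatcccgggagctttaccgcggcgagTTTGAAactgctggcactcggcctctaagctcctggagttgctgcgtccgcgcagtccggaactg
Cdc6 (chr11:98907901-98908200, plus strand): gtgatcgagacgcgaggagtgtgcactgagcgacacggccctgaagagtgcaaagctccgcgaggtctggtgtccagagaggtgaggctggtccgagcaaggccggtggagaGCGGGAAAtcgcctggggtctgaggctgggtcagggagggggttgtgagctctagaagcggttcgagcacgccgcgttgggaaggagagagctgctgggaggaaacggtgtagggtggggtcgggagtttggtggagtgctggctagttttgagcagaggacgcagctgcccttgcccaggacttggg
Mcm6 (chr1:128359656-128359955, minus strand): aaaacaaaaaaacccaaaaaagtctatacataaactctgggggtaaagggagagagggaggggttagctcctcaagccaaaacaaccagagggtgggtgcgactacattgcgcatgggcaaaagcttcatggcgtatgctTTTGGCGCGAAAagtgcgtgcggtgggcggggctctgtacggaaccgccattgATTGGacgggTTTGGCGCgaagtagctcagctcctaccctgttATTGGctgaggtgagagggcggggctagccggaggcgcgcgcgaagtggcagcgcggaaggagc
Mcm5 (chr8:75109259-75109558, plus strand): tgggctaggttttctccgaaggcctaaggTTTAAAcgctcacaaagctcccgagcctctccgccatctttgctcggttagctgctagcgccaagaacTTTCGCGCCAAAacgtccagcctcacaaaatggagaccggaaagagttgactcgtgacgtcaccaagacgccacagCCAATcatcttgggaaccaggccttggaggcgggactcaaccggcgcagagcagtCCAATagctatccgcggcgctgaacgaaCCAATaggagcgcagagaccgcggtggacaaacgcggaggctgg
Mki67 and Ttk, with log2 fold changes of 2.93 and 3.63, hold CHR words and CCAAT and no E2F word. Cdk1, at 2.72, holds all 3 kinds. Cdc6, at 2.75, holds an E2F word and no CHR word or CCAAT, whereas Mcm6 and Mcm5, at 0.61 and 0.73, hold E2F words and CCAAT, and Mcm5 a CHR word as well.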

How the data were processed

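The authors deposited 1 table of expected counts per gene symbol, estimated with Salmon on GRCm38.p6 per the submitters' processing notes, in which 7.16% of values were not whole. Salmon divides shared reads among overlapping or similar genes by a model. Not given in the sources used here are the annotation release, the strand setting and read filters, and per the labels' protocols the libraries hold no molecular identifiers. Of 55291 genes, 30015 had 0 counts in all libraries. Groups and replicate numbers came from the sample titles, and every column was mapped by its library name.

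Expected counts were rounded and tested with edgeR 4.0.16 (quasi-likelihood test, TMM, filterByExpr, robust fit, group as the only term) in R 4.3.3. P-values were adjusted by the method of Benjamini and Hochberg over 16630 genes and called below 0.05. SEs were derived from the F statistic. Levels are CPM on TMM-scaled totals, and CPM per kb used exon lengths of GENCODE M21. The fit was tested on simulated data with the same dispersion for all genes and no difference between column sets. That test therefore does not cover the split of the libraries by column set. Alternatives were DESeq2 1.42.0, limma-voom (limma 3.58.1), 2 other normalizations, 2 other filters, 2 blocked designs, each set of columns, leaving out each library, and, chosen after seeing the data, leaving out the 4 libraries that lacked low counts.

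The 45 genes, the pathway and marker lists and the motifs were chosen with earlier results of these data known. Values in every library are given for the most abundant and the smallest-p gene of each role, and for Mki67 and Pcna. The same holds for Atf4, the pathway genes with the smallest p and the 2 most abundant markers of each list, of which some are given by fold change or by sum only. Top2a, Cdc20, Cdt1, Mcm5, Klf1, Hbb-bs, Alas2 and Pttg1 were added after their values were seen. Single values of some markers are not reported here. Libraries of 1 group differed by a chi-square per degree of freedom of at least 38.5, so none was treated as the same library deposited again. This does not show that they came from separate mice. Replicate numbers of the 2 groups share their number in the titles, and the deviations of same-numbered libraries from their group means correlated at 0.220, 0.199, 0.289 and 0.229 across 16630 genes. Other pairs within a set of columns correlated at 0.157 to 0.254, and pairs across the sets were negative, so the pairing may be that of the sets.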

Additional observations from a re-analysis of the deposited data

Results flagged for a closer look

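For 6 replication genes the effect of ATF4OE over WT differed between the columns with a hyphen and the columns without one, by the interaction of group and column set (edgeR, adjusted over all genes tested, of which 0.998% passed). The differences, with a hyphen minus without, were 0.68 on the log2 scale for Mcm2 (adjusted p = 0.012), 0.64 for Mcm3 (0.018), 0.88 for Mcm5 (0.0037), 0.82 for Mcm7 (0.0027), 1.63 for Cdc6 (0.040) and 0.76 for Rrm1 (0.013). Within columns with a hyphen the log2 fold changes of Mcm2 and Mcm7 were 0.63 and 0.82, and within columns without one they were -0.02 and 0.04. The mitosis genes Ccnb1 and Kif20a had larger differences than Mcm2, at 1.60 and 1.20, but with larger SEs. They did not pass the same test (adjusted p = 0.057 and 0.093). Each set holds 2 libraries of each group. The labels do not say how the sets differ. By the criterion below a single library can hardly stand apart where a group splits by column set into 2 and 2 libraries, as in ATF4OE for 44 of the 45 genes. The share of all genes that split in this way was not counted. For none of 122 combinations of a gene or list and a group did 1 library stand apart from the other 3 by Dixon's criterion, which chance alone meets in about 1 of 20 groups. This says little about the libraries.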

How the results depend on the processing

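Under all 19 alternatives none of the 45 genes was called lower, and the median log2 fold change was higher for mitosis than for replication genes. The count of genes called higher was 31 and was 24 to 38 when 1 library was left out, 19 with limma-voom and 25 with no low-count filter. For replication genes the count was 10, and it was 7 to 16 when 1 library was left out (16 without ATF4OE replicate 2), 16 with DESeq2, 5 with limma-voom, 18 with the column set as a block (beside 14.0% of all genes called higher and 11.6% lower), 20 within columns with a hyphen and 19 without the 4 libraries that lacked low counts. The last fit sets 2 ATF4OE libraries with a hyphen against WT libraries of both kinds, so it carries the difference between the sets as well. The count of mitosis genes was 21 and was 16 to 22 when 1 library was left out. The median log2 fold change of replication genes, 1.08, was 0.85 to 1.20 when 1 library was left out and 0.44 within columns without a hyphen. That of mitosis genes, 2.49, was 2.22 to 2.77. Without the 4 libraries the medians were 1.45 for replication genes and 3.22 for mitosis genes. The cause of these shifts was not tested.

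The column set as a block added Mcm3, Mcm5, Gins2, Pcna and Dut to the genes that the replicate block added. None of these added genes was called within columns without a hyphen, and all were called within columns with one. With the replicate block, 35 of the 45 genes were called higher, 13 replication and 22 mitosis genes, beside 13.7% of all genes, and beside the calls named above the block changed none of the 45. Of the 31 genes called, 22 kept the call whichever library was left out. limma-voom did not call Mcm10, Cdc45, Rrm2, Tyms, Ccne2, Ccnb1, Ccnb2, Cdk1, Cdc25c, Aurka, Bub1 and Kif20a (adjusted p = 0.058 to 0.16), and without the low-count filter Rrm2, Ccnb1, Ccnb2, Top2a, Bub1, Kif20a and Nusap1 were not called (adjusted p = 0.057 to 0.11). Within columns without a hyphen Mcm4, Tyms, Ccne2, Ccnb1, Cdc25c and Aurka were not called. Cdt1 and Kif23 were not called over all 8 libraries in any test. Mcm2, Mcm7 and Ccne1 were also not called over all 8 libraries by edgeR with group only or with a block, by DESeq2 or by limma-voom. Pathway genes outside the 45 were called higher in 51 to 68 of 132 cases when 1 library was left out, against 61.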
